A study of Mus musculus with 2 samples.

Results

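The genes described are Stab1, Stab2, Lyve1, Kdr, Flt1, Flt4, Tek, Tie1, Pecam1 and Cdh5, a set of endothelial genes of which some mark the sinusoids of the liver. They were chosen by gene symbol in the GENCODE annotation, and no measured value entered the choice. All 10 symbols were found among the 43346 Ensembl genes of the deposited gene tables, and the transcript tables held 46 transcripts of them. The samples were 2 libraries of total RNA from the liver of mouse embryos at embryonic day 16.5, which form 1 group of 2 replicates with no second condition. The embryos were of the B6NCrl strain, healthy, and pooled over both sexes. A pool of 41 embryos is given for replicate 2, and the labels used here give no number for replicate 1. Both libraries carry the same donor identifier, so the spread between them may be technical. RNA longer than 200 nt was kept, 10 ng entered each library, and spike-in RNA was added. No genetic change or treatment is named. The libraries are of whole tissue, in which fewer cells of a type and less RNA per cell cannot be told apart.

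Liver sinusoids are capillaries whose lining cells have open pores and no continuous basement membrane, and which take up waste molecules from the blood. They do so with scavenger receptors such as the stabilins, and in the fetus they also form the niche in which blood cells mature. Their growth and survival are governed by receptor tyrosine kinases for vascular endothelial growth factor (VEGF) and for the angiopoietins, while cadherin and immunoglobulin family proteins hold neighbouring endothelial cells together.

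Levels are in TPM, a measure of reads per transcript length that is scaled to the same sum in each library. Every one of the 10 genes reached 1 TPM in both libraries, a level that 52.2% of protein-coding genes and 27.9% of all Ensembl genes reached. Stab1, Lyve1 and Stab2 stood at 10 TPM or more in both, a level that 26.4% of protein-coding genes reached. The 10 genes together held 14793 expected counts in replicate 1 and 17366 in replicate 2, and their TPM summed to 104 and 115. Their median was 7.09 TPM in replicate 1 and 7.78 TPM in replicate 2. Among protein-coding genes ranked by mean TPM they lay between the percentiles 54.9, for Flt1, and 85.5, for Stab1. The full-length mRNAs of Stab1 and Stab2 held 15.0% to 29.5% of the TPM of these genes. The rest of Stab1 lay mainly on retained-intron and processed transcripts, and the rest of Stab2 on transcripts whose type is not given here. Taken alone, the full-length mRNA of each was below the VEGF receptor Kdr in both libraries. With all counts of a gene over its longest coding transcript, Stab2 was above Kdr and Stab1 below it in both libraries.

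**Figure D1:**
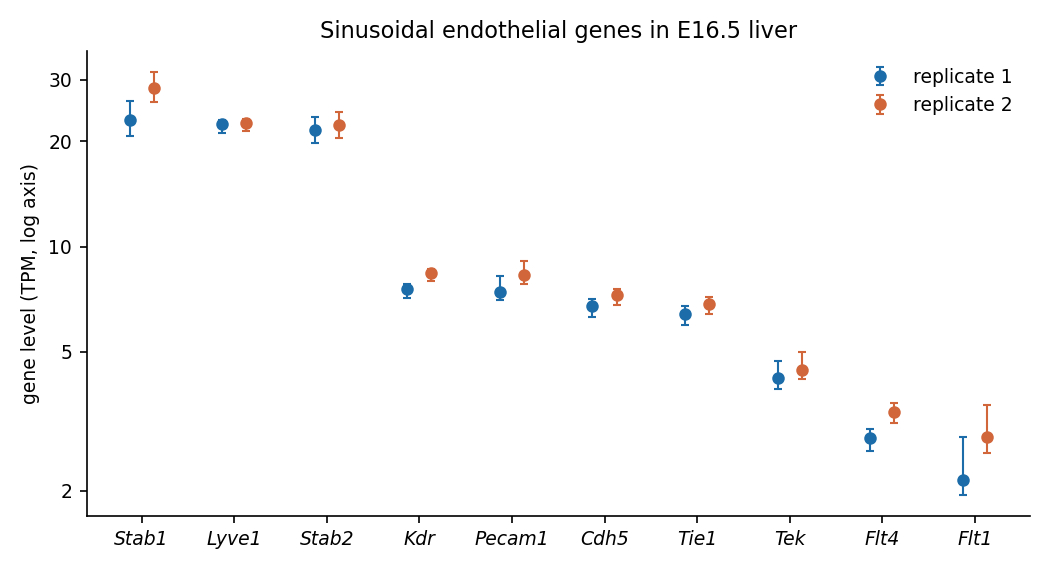
TPM of each gene (log axis) in replicate 1 (blue) and replicate 2 (orange) of E16.5 liver, ordered by mean, with bars for the deposited TPM interval, whose level is not stated. Stab1, Lyve1 and Stab2 lie between 21.5 and 28.5 TPM in both libraries, and the other genes between 2.15 and 8.38.

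Of the 10 genes, 3 encode the stabilins, which are scavenger receptors, and a hyaluronan receptor. Stab1 (ENSMUSG00000042286, chr14:31139013-31168641 on the minus strand of GRCm38) encodes stabilin-1, a large receptor for modified proteins that sinusoidal endothelium and some macrophages carry. It had 23.0 TPM in replicate 1 and 28.5 TPM in replicate 2 (25.8 ± 3.87, mean ± SD, n = 2). These rest on 2377 and 2800 expected counts. The deposited interval ran from 20.7 to 26.1 in the first library and from 25.9 to 31.6 in the second, so the intervals overlapped slightly. Stab2 (ENSMUSG00000035459, chr10:86841198-87008025, minus strand) encodes stabilin-2, the main receptor by which sinusoidal cells clear hyaluronan. Its level was 21.5 TPM in replicate 1 and 22.3 TPM in replicate 2 (21.9 ± 0.552), from 3011 and 3530 expected counts. Lyve1 (ENSMUSG00000030787, chr7:110850607-110863239, minus strand) encodes a hyaluronan receptor of lymphatic and sinusoidal endothelium that tissue macrophages can also carry. Its level was 22.4 TPM in replicate 1 and 22.6 TPM in replicate 2 (22.5 ± 0.120), from 2363 and 2572 expected counts. Lyve1 therefore differed least between the libraries and Stab1 differed by more than Stab2 and Lyve1.

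The gene level of Stab1 was spread over 13 annotated transcripts. Stab1-201, the 7999 nt mRNA with 69 exons and 2571 codons, had 4.31 TPM in replicate 1 and 4.28 TPM in replicate 2, which is 18.7% and 15.0% of the gene's TPM. By expected counts the same transcript held 60.3% and 54.9% of the gene. The 9 transcripts annotated as retained introns summed to 12.2 and 14.7 TPM. A processed transcript of 242 nt, Stab1-202, alone had 5.91 and 4.87 TPM from 35.6 and 31.7 expected counts. The 6 transcripts shorter than 1000 nt held 35.1% and 41.8% of the gene's TPM, and 2.84% and 5.04% of its counts. A few reads on a very short transcript model thus carry much of the level per length.

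By TPM, though not by counts, most of the gene's level lay on transcript models at the 3′ end. Besides Stab1-201, 6 transcripts end in the last exon and share bases there with exons of Nt5dc2, a gene on the opposite strand at 111 and 129 TPM. Between them they held 14.6 TPM in replicate 1 and 18.1 TPM in replicate 2, or 63.2% and 63.4% of Stab1, but 28.9% and 30.4% of its expected counts. Stab1-201 itself has 112 nt in common with exons of Nt5dc2. No step that keeps the strand is named in the labels. Reads of the shared bases can therefore not be assigned to 1 strand with certainty. The expected counts were not whole numbers for Stab1, at 2377.49 and 2799.51, nor for Nt5dc2, at 6121.51 and 7679.49. At the 5′ end, 3 retained-intron transcripts within exons 1 to 21, which share no bases with Nt5dc2, held 3.96 and 5.66 TPM. The larger part of the library difference of Stab1 lay in Stab1-207, a coding fragment of 413 nt with 92 codons. It went from 0.45 TPM in replicate 1 to 4.46 TPM in replicate 2, on 5.97 and 63.7 expected counts, and accounts for 4.01 of the 5.50 TPM between the libraries. Without it the gene was at 22.6 and 24.1 TPM.

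**Figure D2:**
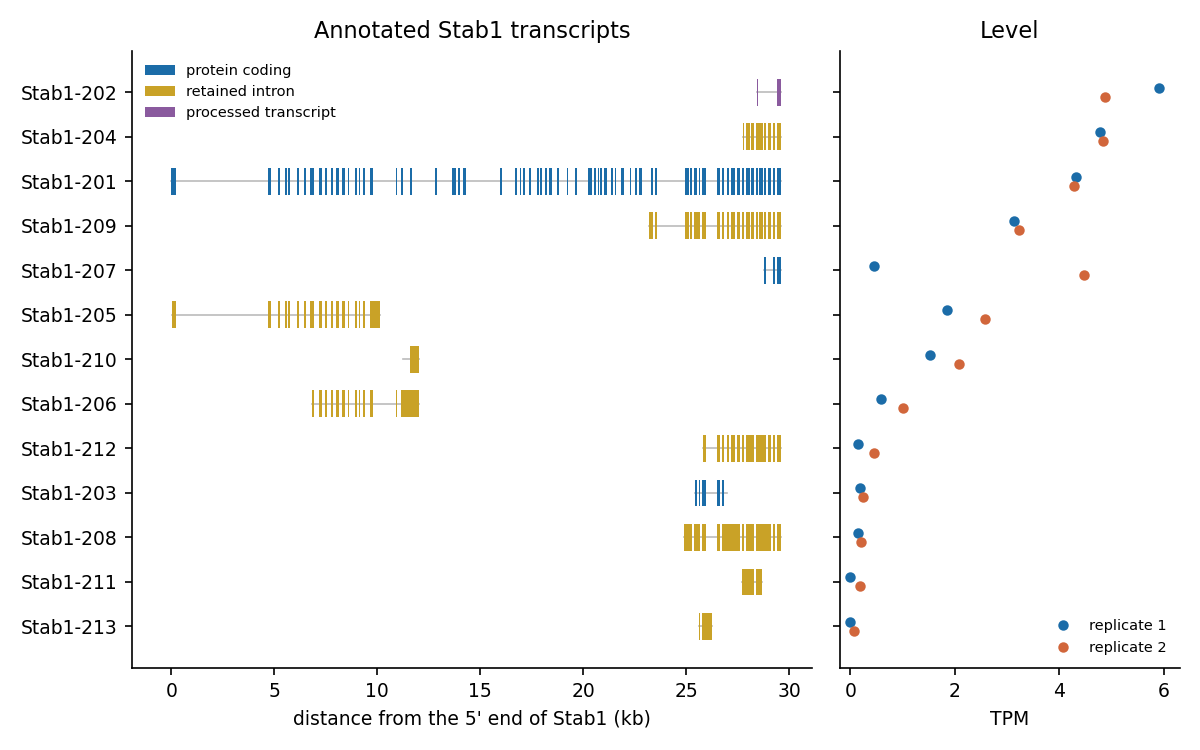
Left, exons of the 13 annotated Stab1 transcripts against distance from the 5′ end of the gene in kb, coloured by annotated type, and right, the TPM of each in replicate 1 (blue) and replicate 2 (orange). The transcripts Stab1-202 and Stab1-204, at the 3′ end, lie above the full-length Stab1-201 in both libraries, and Stab1-207 differs most between the libraries.

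Stab2 showed the same division on 7 transcripts. Its full-length mRNA Stab2-201, of 8228 nt and 2559 codons, had 6.11 TPM in replicate 1 and 6.59 TPM in replicate 2, which is 28.4% and 29.5% of the gene by TPM and 69.4% and 69.0% by counts. The other 6 transcripts carry identifiers with no entry in the annotation release used here, so their type is not given. They summed to 15.4 and 15.7 TPM. Of these, a transcript of 523 nt had 6.84 TPM in replicate 1 and 5.35 TPM in replicate 2, from 122 and 103 expected counts, and so led the gene in replicate 1 while Stab2-201 led in replicate 2. Stab2 was the only one of the 8 genes with several transcripts whose leading transcript differed between libraries, which 8.83% of such protein-coding genes at 1 TPM did. The annotated opposite-strand genes within Stab2 held at most 24.2 expected counts, for the pseudogene Gm16270. Stab2-201 has 141 nt in common with exons of another, Gm16268, which held 1.01 and 1.03 expected counts. The expected counts of Stab2 were not whole numbers either.

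Lyve1 and Cdh5 have a single transcript each. In the remaining 6 genes, transcripts with at least 50% of the codons of the longest coding sequence led in both libraries and held between 80.5% and 100% of the TPM. Over 8288 protein-coding genes at 1 TPM with several transcripts, such long coding transcripts led in both libraries in 85.5% and held under 50% of the TPM in both libraries in 13.9%. The median share was 88.6% in replicate 1 and 88.5% in replicate 2. The mean share of 16.9% for Stab1 exceeded that of 3.82% of these genes, and the 28.9% for Stab2 exceeded that of 6.71%. Among the 618 genes whose longest coding transcript has 7000 nt or more, as both stabilins do, the median share was 59.8% and 60.3%, and 36.1% had under 50% in both libraries.

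**Figure D3:**
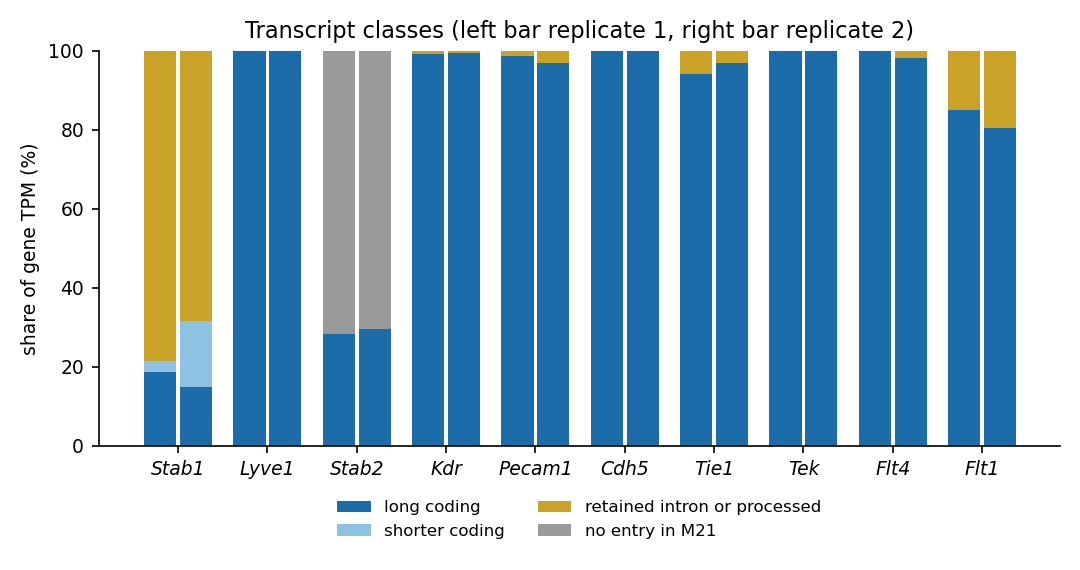
Share of each gene's TPM held by long coding transcripts (dark blue), shorter coding transcripts (light blue), retained-intron or processed transcripts (yellow) and transcripts with no entry in the annotation used (grey), with replicate 1 on the left and replicate 2 on the right of each pair. Long coding transcripts hold 15.0% to 29.5% of Stab1 and Stab2 and 80.5% or more of every other gene. Those of Flt1 include Flt1-203, of 688 codons.

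A further 3 genes encode the VEGF receptors. Kdr (ENSMUSG00000062960, chr5:75932827-75978458, minus strand) encodes VEGFR2, the main signalling receptor for VEGF-A on blood endothelium. It had 7.56 TPM in replicate 1 and 8.38 TPM in replicate 2 (7.97 ± 0.580), from 1845 and 2216 expected counts. The deposited intervals, 7.14 to 7.82 and 7.95 to 8.64, did not overlap. Kdr-201, with 1345 codons, held 99.1% and 99.5% of this, and the retained-intron transcript Kdr-202 had 0.070 and 0.040 TPM. Flt4 (ENSMUSG00000020357, chr11:49609263-49652739, plus strand) encodes VEGFR3, the receptor for VEGF-C and VEGF-D known from lymphatic vessels and also present on fenestrated endothelium. Its level was 2.83 TPM in replicate 1 and 3.37 TPM in replicate 2 (3.10 ± 0.382), from 733 and 936 expected counts, and its intervals, 2.60 to 3.0 and 3.13 to 3.56, did not overlap either. Flt1 (ENSMUSG00000029648, chr5:147561604-147726011, minus strand) encodes VEGFR1, which binds VEGF tightly and signals weakly. It was the lowest of the 10 genes, with 2.15 TPM in replicate 1 and 2.86 TPM in replicate 2 (2.51 ± 0.502), from 525 and 736 expected counts.

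Within a library, the ratio of Flt1 to Kdr was 0.284 in replicate 1 and 0.341 in replicate 2 (0.313 ± 0.040), and that of Flt4 to Kdr was 0.374 and 0.402 (0.388 ± 0.020). Kdr thus stood above both other receptors in each library. With long coding transcripts only, the ratio of Flt1 to Kdr was 0.243 and 0.277. For Flt1 these include Flt1-203, of 688 codons, the short form described below. The full-length Flt1-202 alone had 1.41 TPM in replicate 1 and 1.62 TPM in replicate 2, against 7.49 and 8.34 TPM for Kdr-201. Flt1 and Kdr lie on the same chromosome, and the bases just upstream of their transcription start, from RefSeq on GRCm38.p6, are shown because these paralogues differ in level. Kdr is shown at chr5:75978459-75978705 and Flt1 at chr5:147726012-147726261, both on the minus strand and read 5′ to 3′ towards the gene. Capitals mark GGAA or its complement TTCC, the core letters bound by ETS family factors.
Kdr: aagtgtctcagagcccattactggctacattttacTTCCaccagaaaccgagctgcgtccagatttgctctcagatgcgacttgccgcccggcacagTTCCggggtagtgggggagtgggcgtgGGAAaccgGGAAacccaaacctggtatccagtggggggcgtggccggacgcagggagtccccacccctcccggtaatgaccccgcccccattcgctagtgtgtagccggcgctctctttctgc
Flt1: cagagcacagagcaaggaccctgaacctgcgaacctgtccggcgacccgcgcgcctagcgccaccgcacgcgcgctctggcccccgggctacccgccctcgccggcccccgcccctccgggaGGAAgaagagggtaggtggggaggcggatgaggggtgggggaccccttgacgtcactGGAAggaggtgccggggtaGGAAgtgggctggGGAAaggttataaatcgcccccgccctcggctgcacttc
The 250 nt window before the RefSeq start of each gene holds 4 matches to GGAA or TTCC in both. Flt1 has TATAAA (or TTTATA) and Kdr does not, and 12.4% of all 32851 promoter windows of this length do. GGGCGG or CCGCCC occurs 2 times before Kdr and 3 times before Flt1, and 32.7% of windows have it. Of the 10 genes, 7 have such a window, and all 7 hold GGAA or TTCC, as 93.4% of all windows do. The RefSeq start lies 416 nt inside the GENCODE gene for Flt4, 212 nt for Tie1 and 83 nt for Stab2. Their windows therefore lie wholly or partly within the annotated gene. GATA or TATC was present in 4 of the 7 and in 53.6% of all windows. These are matches of letters on both strands, overlaps counted, and not binding sites.

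Flt1 is known for a short form that ends after exon 13, lacks the membrane-spanning part and binds VEGF outside the cell. The full-length Flt1-202 (6895 nt, 30 exons, 1333 codons) had 1.41 TPM in replicate 1 and 1.62 TPM in replicate 2. The short Flt1-203 (6292 nt, 13 exons, 688 codons) had 0.41 TPM, with a deposited interval of 0.312 to 0.507, and 0.69 TPM, with an interval of 0.565 to 0.810. Of the TPM of these 2 transcripts the short form took 22.5% in replicate 1 and 29.9% in replicate 2 (26.2 ± 5.19%). The sequences at the point where they part are shown because the encoded proteins differ from there on. Both begin with the last 30 bases of exon 13 (chr5:147639225-147639533, minus strand) in lower case. Capitals mark, for Flt1-202, the first 60 bases of exon 14 (chr5:147634464-147634523) and, for Flt1-203, the bases after exon 13 up to and including its stop codon (chr5:147639130-147639224). They are from GENCODE transcripts on GRCm38.
Flt1-202: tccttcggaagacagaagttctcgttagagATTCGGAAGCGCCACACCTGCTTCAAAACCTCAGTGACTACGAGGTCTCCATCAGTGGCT
Flt1-203: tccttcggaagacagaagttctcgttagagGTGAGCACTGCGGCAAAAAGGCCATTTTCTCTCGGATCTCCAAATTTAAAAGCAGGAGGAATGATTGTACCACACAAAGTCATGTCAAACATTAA
Of the 6292 nt of Flt1-203, 2226 nt lie in exons of Flt1-202 and 4066 nt in its introns. In total RNA, reads from unspliced Flt1 precursor and from the short mRNA cannot be told apart over those introns. Another transcript, which is noncoding, Flt1-201, had 0.15 TPM in replicate 1 and 0.47 TPM in replicate 2.

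A pair of genes encodes the TIE receptors. Tek (ENSMUSG00000006386, chr4:94739289-94874976, plus strand) encodes TIE2, the receptor that binds angiopoietins and keeps vessels quiescent. It had 4.20 TPM in replicate 1 and 4.45 TPM in replicate 2 (4.33 ± 0.177), from 793 and 907 expected counts. Tie1 (ENSMUSG00000033191, chr4:118471191-118490061, minus strand) encodes a partner of TIE2 with no angiopoietin binding of its own. It had 6.42 TPM in replicate 1 and 6.86 TPM in replicate 2 (6.64 ± 0.311), from 1060 and 1234 expected counts. Tie1 was above Tek in both libraries, with a ratio of 1.53 in replicate 1 and 1.54 in replicate 2. Tie1-201, with 1134 codons, held 90.2% and 93.9% of Tie1. For Tek, Tek-203 (1123 codons) had 3.17 TPM in replicate 1 and 3.02 TPM in replicate 2. Tek-202, which lacks exon 4 and has 1072 codons, had 0.57 TPM in replicate 1, with an interval of 0.066 to 1.10, and 0.91 TPM in replicate 2, with an interval of 0.414 to 1.65. The skipped exon has 153 nt, is coding, and lies at chr4:94799127-94799279 on the plus strand. It is shown because it is the exon that Tek-202 lacks.
Tek exon 4: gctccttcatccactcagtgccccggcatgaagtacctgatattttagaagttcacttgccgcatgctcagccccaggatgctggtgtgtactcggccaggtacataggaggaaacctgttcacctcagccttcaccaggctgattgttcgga
The intervals of Tek-202 were wide and overlapped between the libraries, so its share of Tek, 13.6% and 20.4%, was not resolved as different.

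Pecam1 and Cdh5 encode proteins of endothelial cell contacts. Pecam1 (ENSMUSG00000020717, chr11:106654217-106750628, minus strand) encodes CD31, an adhesion molecule of endothelium that platelets and many leukocytes also carry. It had 7.40 TPM in replicate 1 and 8.29 TPM in replicate 2 (7.85 ± 0.629), from 976 and 1151 expected counts. Cdh5 (ENSMUSG00000031871, chr8:104101625-104144511, plus strand) encodes VE-cadherin, the cadherin of endothelial adherens junctions. It had 6.78 TPM in replicate 1 and 7.26 TPM in replicate 2 (7.02 ± 0.339), from 1109 and 1284 expected counts. Pecam1 was above Cdh5 in each library by TPM, with a ratio of 1.09 and 1.14, but below it by expected counts, with a ratio of 0.880 and 0.896.

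Pecam1 had the most long coding transcripts, 5, and some of them differ in exons that encode the cytoplasmic tail. The highest was Pecam1-203 (697 codons), which lacks exons 14 and 15 of Pecam1-204, with 4.11 TPM in replicate 1 and 3.51 TPM in replicate 2. Pecam1-202 (716 codons), which lacks exon 15 alone, had 1.33 and 1.25 TPM. Pecam1-204 (727 codons), which has both exons, had 1.07 and 1.19 TPM. Pecam1-207, which lacks exon 4 of 303 nt and has 626 codons, had 0.62 TPM in replicate 1 and 1.87 TPM in replicate 2. Pecam1-207 and Pecam1-201 (0.18 and 0.22 TPM) hold both tail exons as well, the latter only in part. The 3 transcripts with both exons summed to 1.87 TPM in replicate 1 and 3.28 TPM in replicate 2, or 25.2% and 39.6% of the gene, against 55.5% and 42.3% for the transcript with neither. By these estimates the form with neither exon was higher in replicate 1 and close to the forms with both in replicate 2. The deposited intervals were wide and overlapped between the libraries. They ran from 2.61 to 4.76 and from 1.77 to 4.32 for Pecam1-203, and from 0.195 to 1.36 and from 0.692 to 2.90 for Pecam1-207. The shift between the libraries was therefore not resolved. The exons are shown because they define these forms, and lie on the minus strand at chr11:106671742-106671798 (exon 14, 57 nt) and chr11:106662002-106662024 (exon 15, 23 nt).
Pecam1 exon 14: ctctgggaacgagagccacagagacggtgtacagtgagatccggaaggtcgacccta
Pecam1 exon 15: atctcatggaaaacagatactct

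By gene TPM the order was Stab1, Lyve1, Stab2, Kdr, Pecam1, Cdh5, Tie1, Tek, Flt4 and Flt1, and each gene was above the next in both libraries. The ranges of the 2 libraries did not overlap in 6 of the 9 neighbouring pairs, and overlapped between Kdr and Pecam1, Cdh5 and Tie1, and Flt4 and Flt1. The deposited intervals were apart in both libraries in 3 pairs, Stab2 over Kdr, Tie1 over Tek, and Tek over Flt4. When only long coding transcripts were counted, Lyve1 led with 22.5 ± 0.120 TPM, followed by Kdr with 7.92 ± 0.601. Stab2 then had 6.35 ± 0.339 TPM and lay next to Tie1, and Stab1 had 4.30 ± 0.021 TPM and lay next to Tek. Neither stabilin differed from that neighbour beyond the range of the libraries. When instead all counts of a gene were divided by the length of its longest coding transcript, Stab2 had 9.17 ± 0.529 and Stab1 7.47 ± 0.454 on the TPM scale, against 7.94 ± 0.594 for Kdr. Stab1 was above Stab2 by gene TPM in each library, with a ratio of Stab2 to Stab1 of 0.936 in replicate 1 and 0.783 in replicate 2. On long coding transcripts this ratio was 1.42 and 1.54, and by expected counts, which cover all transcripts, 1.27 and 1.26. With all counts over the longest coding transcript it was 1.23 in both libraries. The direction therefore depends on the scale used.

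**Figure D4:**
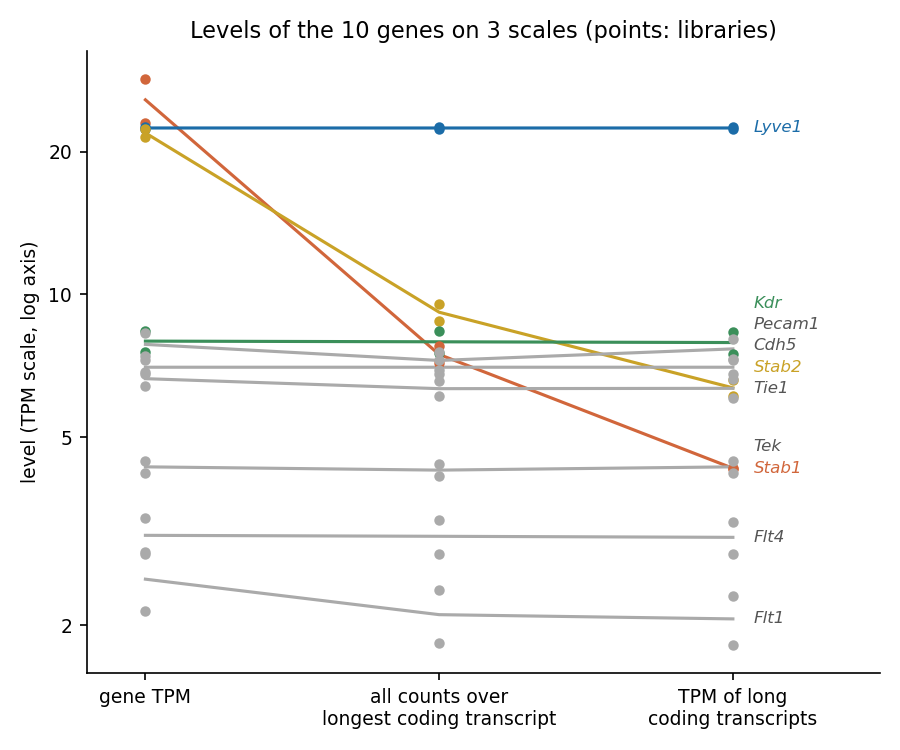
Level of each gene (log axis, TPM scale) as gene TPM, as all counts over the longest coding transcript, and as TPM of long coding transcripts only, with points for the libraries and lines through their means. Lyve1 stays at 22.5, while Stab1 goes from 25.8 through 7.47 to 4.30 and Stab2 from 21.9 through 9.17 to 6.35.

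For the difference between the libraries, log2(TPM + 1) in replicate 1 was subtracted from that in replicate 2, and the median over 12017 genes (those averaging at least 100 expected counts) was set to 0. It compares 1 library with 1, so no p-value is given. None of the 10 genes passed 1.5-fold, which 1.13% of these genes did (0.974% by being higher in replicate 2). On the centred scale 9 of 10 were above 0, as 50% of all genes are by construction, and by TPM itself 10 of 10 were higher in replicate 2, as 54.3% of genes were. The median of the 10 was 0.09, from -0.01 for Lyve1 to 0.28 for Stab1, and the middle 50% of all genes lay between -0.11 and 0.12. The value of Stab1 depends on the scale: it was 0.10 by counts with TMM factors, 0.09 by counts with DESeq2 size factors or over the longest coding transcript, and -0.03 on its long coding transcript. The deposited intervals were apart in 2 of the 10, Kdr and Flt4, both higher in replicate 2, and in 25.4% of all genes, 14.3% with the higher value in replicate 2. By TPM the next ratio after Stab1 was that of Flt1, at 0.27, whose share of the Ensembl gene counts in replicate 2 was 1.29 times that in replicate 1 (exact 95% interval 1.15 to 1.44, counting error only). Such intervals lay above 1 in 5 of the 10 genes, Stab1, Stab2, Kdr, Flt4 and Flt1. The share of all genes with such an interval is not given here, so this count has no background to set it against. Scaled to the spike-ins, whose TPM share was 3.96% and 5.08%, the median of all genes moved to -0.29 and that of the 10 genes to -0.20, with 1 of the 10, Flt1, above 0, as 8.46% of all genes were. The direction of the difference over the set therefore depends on the scaling. On the centred scale, 10 of 19 counted genes of the other sinusoidal list and 11 of 16 pan-endothelial genes were higher in replicate 2. So were 4 of 5 arterial, 3 of 4 venous and 1 of 3 lymphatic genes. Of the junction partners 6 of 12 were higher, and of the endothelial transcription factors 9 of 18. On the same scale, markers of other cells differed by list. Higher in replicate 2 were 10 of 11 counted macrophage and Kupffer genes, 7 of 8 megakaryocyte and platelet genes, 6 of 7 hepatocyte genes and 8 of 9 stellate and mural genes, with Des at 6.34 and 12.2 TPM. Of the stem and progenitor genes 3 of 7 were higher, and of the erythroid genes 3 of 8. Their part in the result was not tested.

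Genes of the VEGF pathway outside the receptors were mostly low. Of the 5 ligands found, Vegfb, a ligand of VEGFR1, alone reached 1 TPM in both, with 6.79 TPM in replicate 1 and 9.17 TPM in replicate 2. Vegfa, the main ligand of VEGFR2, had 1.05 and 0.92 TPM. Vegfc and Vegfd, the ligands of VEGFR3, had 0.88 and 1.18 TPM, and 1.02 and 0.94 TPM, and the placental growth factor Pgf had 0.48 and 0.49 TPM. Of the 7 co-receptor and signalling genes, 5 reached 1 TPM in both. The co-receptor Nrp1 was highest, with 6.24 and 6.68 TPM, while its relative Nrp2 had 0.62 and 0.79 TPM. The signalling enzyme Plcg1 had 3.91 and 4.82 TPM, and the adaptors Shb and Sh2d2a had 1.30 and 1.26 TPM, and 0.26 and 0.32 TPM. Notch1 had 2.74 and 2.45 TPM, and its ligand Dll4 had 1.77 and 1.83 TPM.

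No gene of the 6 angiopoietin and TIE partners reached 1 TPM in both libraries. Angpt1, which activates TIE2, had 1.15 TPM in replicate 1 and 0.91 TPM in replicate 2. Angpt2, which can oppose it, had 0.87 and 0.70 TPM, and the phosphatase gene Ptprb had 0.92 and 1.02 TPM. Svep1 had 0.27 and 0.44 TPM, Angptl1 0.27 and 0.35 TPM, and Angpt4 0.10 and 0.050 TPM. Tek and Tie1 were thus above each of these genes in both libraries.

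For hyaluronan, which Stab2 and Lyve1 bind, the 3 synthase genes were near 0. Has2 had 0.050 and 0.030 TPM, Has3 0.030 and 0.020 TPM, and Has1 0.020 TPM in both, on at most 8 expected counts. The degrading enzyme Hyal2 had 44.3 and 42.8 TPM and Hyal1 had 2.68 and 3.12 TPM. Of the other receptors, Hmmr, which also acts at the mitotic spindle, had 47.4 and 39.8 TPM, and Cd44, common on blood cells, had 12.8 and 13.8 TPM.

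All 12 junction partners of Cdh5 and Pecam1 reached 1 TPM in both libraries. The catenins, which link cadherins to actin and are not confined to endothelium, were high, with Ctnnb1 at 66.6 and 67.6 TPM, Ctnna1 at 30.5 and 28.8 TPM, Jup at 13.9 and 15.5 TPM and Ctnnd1 at 13.1 and 13.9 TPM. The adhesion genes known from endothelium, Esam, with 13.8 and 13.9 TPM, and Icam2, with 11.9 and 12.9 TPM, were above Cdh5. The tight junction gene Cldn5 had 8.67 and 7.32 TPM. F11r, also epithelial, had 29.4 TPM in both, while its relatives Jam3 and Jam2 had 2.62 TPM in both and 2.29 and 2.13 TPM. The plaque genes Cgn and Tjp1 had 11.5 and 13.7 TPM, and 2.96 and 4.40 TPM.

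Of 20 other genes of sinusoidal endothelium, 19 reached 1 TPM in both libraries, with a list median of 5.0 TPM in replicate 1 and 6.22 TPM in replicate 2. The highest were Fcna, with 76.3 and 77.0 TPM, Aqp1, with 69.5 and 66.2 TPM, and Cd36, with 27.8 and 25.6 TPM, of which macrophages or red cells carry some as well. The lowest was Wnt9b, at 0.060 TPM in both. The 16 pan-endothelial genes had a median of 6.44 and 6.67 TPM, led by Egfl7 (45.0 and 47.5 TPM), Eng (22.8 and 25.6 TPM) and Plvap (15.8 and 17.4 TPM), with Ptprb the lowest. Lists of other vessel types were lower. The 9 arterial genes had a median of 1.54 and 1.80 TPM, with Gja5 (2.47 and 2.56 TPM), Cxcr4 (2.19 and 2.14 TPM) and Gja4 (1.60 and 2.44 TPM) the highest and Hey2 (0.29 and 0.27 TPM) the lowest. The 6 venous and von Willebrand factor genes had a median of 2.49 and 2.77 TPM, with Vwf (9.19 and 10.5 TPM), Ephb4 (6.41 and 7.93 TPM) and Nr2f2 (3.44 and 3.17 TPM) the highest and Sele (0.020 and 0.050 TPM) the lowest. The 6 lymphatic genes had a median of 2.37 and 2.53 TPM, with Reln (17.5 and 17.7 TPM), Prox1 (5.95 and 6.60 TPM) and Mmrn1 (3.87 and 3.77 TPM) the highest and Foxc2 (0.030 and 0.070 TPM) the lowest. Reln is also a stellate cell gene and Prox1 a hepatocyte gene, while Pdpn and Ccl21a, more particular to lymphatic vessels, had 0.87 and 1.28 TPM, and 0.75 and 0.79 TPM. In all, 46 of the 57 genes of these 5 lists reached 1 TPM in both.

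**Figure D5:**
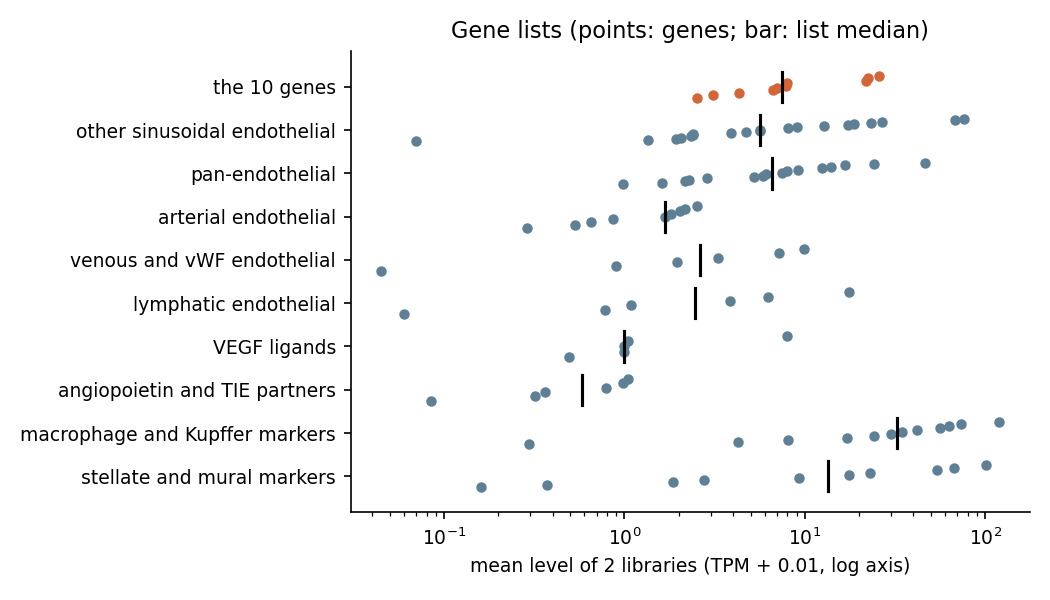
Mean TPM + 0.01 over both libraries (log axis) of each gene of 10 lists, one point a gene, with a bar at the list median. The 10 genes, with a median of 7.43, lie near the sinusoidal and pan-endothelial lists and above the medians of the arterial, lymphatic, VEGF ligand and angiopoietin lists.

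Cells other than endothelium can carry some of the 10 genes, and their markers were present. The 12 macrophage and Kupffer genes, of interest for Lyve1 and Stab1, had a median of 30.5 TPM in replicate 1 and 34.1 TPM in replicate 2 and summed to 452 and 493 TPM. C1qb (114 and 124 TPM), Cd5l (72.2 and 75.0 TPM) and C1qa (59.9 and 66.2 TPM) led them, and Cd163, at 0.26 and 0.31 TPM, was lowest. The 8 megakaryocyte and platelet genes, of interest for Pecam1, had a median of 17.9 and 20.2 TPM and summed to 420 and 421 TPM, with Pf4 (213 and 217 TPM), Ppbp (131 and 116 TPM) and Itga2b (25.0 and 29.0 TPM) highest and Gp1ba (1.99 and 3.40 TPM) lowest. The 8 stem and progenitor genes, of interest for Tek, had a median of 6.01 and 6.89 TPM and summed to 46.0 and 47.8 TPM, with Kit (12.9 and 12.6 TPM), Cd48 (10.6 and 9.49 TPM) and Cd34 (6.78 and 8.20 TPM) highest and Mecom (0.87 and 0.89 TPM) lowest. The 10 stellate and mural genes had a median of 11.9 and 14.9 TPM and summed to 248 and 307 TPM, from Col3a1 (92.8 and 109 TPM), Col1a1 (57.2 and 77.7 TPM) and Dcn (51.5 and 57.1 TPM) down to Rgs5 (0.10 and 0.20 TPM). How much of the level of Lyve1, Stab1, Pecam1 or Tek comes from such cells was not tested.

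Replicate 1 held 44477766 expected counts, 43364573 of them on Ensembl genes, and replicate 2 held 48820712, with 47263435 on Ensembl genes. Hepatocyte and red cell genes were far above the endothelial ones. The 7 hepatocyte genes had a median of 1418 and 1579 TPM, led by Afp, Alb and Apoa1 with Hnf4a lowest at 16.6 and 18.5 TPM, and the 8 erythroid genes had a median of 32449 and 30511 TPM. Among those, the globin copies Hba-a2, Hbb-bs and Hba-a1 were highest and Klf1 (346 and 356 TPM) lowest.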

How the data were processed

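The data are total RNA-seq of 2 libraries of E16.5 mouse liver. For each the authors deposited a gene table and a transcript table, quantified from alignments to the transcriptome on mm10 with GENCODE M4, per the text deposited beside the tables. The column names are those of RSEM, and for its version and for the aligner nothing is given in the sources used here. The authors deposited expected counts, an estimate per gene or transcript in which a shared read is split, so values can be fractions of a read. The deposited TPM has the same sum in each library over all rows, spike-ins included, and its deposited interval has no stated level. The deposited FPKM and percent columns entered no result, since shares were recomputed from TPM. Deposited lengths and effective lengths are in nucleotides, the latter being the length less 99 nt.

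Symbols, types and coordinates came from GENCODE M21 (GRCm38), matched by identifier without version, and 42462 of 43346 Ensembl genes matched. Promoter windows are from RefSeq (GRCm38.p6). Of the transcripts, 40 of 46 had an M21 entry. Levels are given per library with mean ± SD over 2 libraries. Counts per library were rounded for the TMM (edgeR 4.0.16) and DESeq2 1.42.0 size factors (R 4.3.3), and ratios used a pseudocount of 1. The remaining computation was done in Python 3.11.15 (pandas 2.3.3, numpy 2.4.6, scipy 1.17.1, matplotlib 3.10.9). Of it, only the log2 ratio between the libraries was checked on simulated counts. Intervals of counts cover counting error only, since reads carried no molecular identifiers. The text names all 10 genes, and of every other list the 3 highest and the lowest by mean TPM. It also names every gene of the VEGF, angiopoietin, hyaluronan and junction lists. Genes named beyond this rule (Nt5dc2, Gm16270, Gm16268, Pdpn, Ccl21a and Des) were chosen after their values were seen. The genes, lists and alternatives were chosen with earlier results of these data known. Members of the lists are not replicates.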

Additional observations from a re-analysis of the deposited data

How the results depend on the processing

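No paired analysis was possible because the libraries form 1 group and no groups are compared. With 2 libraries, leaving 1 out keeps no spread: the median of the 10 genes was then 7.09 to 7.78 TPM, and the number led by a long coding transcript 8 to 9. All 10 genes stayed at 1 TPM or more under posterior mean TPM and the 0.5 TPM threshold, and 3 reached 10 TPM. The median of 7.43 TPM became 7.98 when TPM was rescaled over nuclear genes. The order of the 45 gene pairs was kept in 44 with posterior mean TPM and 41 with counts on TMM factors. Under spike-in scaling the median log2 ratio was -0.20, against -0.29 over all genes, and 1 gene was higher in replicate 2, against 8.46% of all genes. The ratio of Flt4 to Kdr was 0.410 by expected counts. The ratio of Tie1 to Tek was 1.48 by posterior mean TPM and 1.35 by counts, that of Pecam1 to Cdh5 1.16 and 0.888, and that of Stab2 to Stab1 was 1.26 by counts. Alternatives added after seeing the data used long coding transcripts only, or all counts over the longest coding transcript. With the first the median was 6.34 TPM, Flt1 to Kdr 0.260, Tie1 to Tek 1.46 and Stab2 to Stab1 1.48, and 35 pairs kept their order. With the second these ratios were 0.264, 1.49 and 1.23, Pecam1 to Cdh5 was 1.03, and 42 pairs kept their order. Counts are not divided by length, and the cause of the changes above was not tested. The planned comparison of protein sequences was not run. The endothelial list count of 46 was 52 at 0.5 TPM. Low counts limit the precision of single transcripts. Flt1, with the fewest counts of the 10 genes, had an SD of 20.0% of its mean, and the cause was not tested. The choice of transcripts moved Stab1 from 25.8 to 4.30 TPM and Stab2 from 21.9 to 6.35.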

Other observations

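Transcription factors that endothelial cells use spanned a wide range. Of 20 such genes, 17 reached 1 TPM in both libraries, and the list median was 3.36 TPM in replicate 1 and 3.60 TPM in replicate 2. The highest were Lmo2 (113 and 110 TPM) and Tal1 (15.1 and 15.6 TPM), which red cell precursors also use, and Hhex (30.1 and 29.2 TPM), also a hepatocyte factor. Of the ETS family members, Ets1 had 14.6 and 13.9 TPM, Fli1 7.23 and 6.06 TPM, and Erg 1.43 and 1.78 TPM. Etv2, which acts at the start of vessel formation, had 0 expected counts in both libraries, where 3 counts would correspond to 0.075 and 0.070 TPM. Sox18 had 6.09 and 6.01 TPM. Ets1, Fli1, Erg, Tal1 and Sox18 were named after their values were seen.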
